A study of Homo sapiens with 18 samples.

Results

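The genes described here are 10 genes of erythropoietin signalling and iron handling, EPO, EPOR, TF, TFRC, CP, HMOX1, FTH1, HAMP, SLC40A1 and SLC11A2. The rule lists them by name and uses no measured value, but the genes were chosen with earlier results of these data known. They are part of the 23106 genes counted in each of 18 RNA-seq samples, and all 10 had a row in every sample. PolyA+ RNA was sequenced from 3 human cell lines in normoxia and in hypoxia, with 3 samples in each of the 6 groups. HKC-8 is a line derived from renal proximal tubule. RCC4 is a renal carcinoma line that lacks VHL, used here after stable transfection with wild-type VHL, so both its normoxic and its hypoxic samples carry the transgene. HepG2 is a liver-derived cancer line. The labels give the hypoxic exposure as 0.5% oxygen for 16 h for HKC-8 and HepG2 cells and as 1% oxygen for 24 h for RCC4 cells. For hypoxic HKC-8 cells the sample titles read 0.1 in place of 0.5, and a legend in the study's text, on all 3 lines together, gives the RCC4 exposure differently from the labels, so the dose in these 2 lines is uncertain. Each line is a single established line, and nothing in the labels says whether the 3 samples of a group came from separate cultures, so p-values measure the spread between these samples only.

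Erythropoietin is the hormone that drives red cell production, and it is made by kidney and liver in response to hypoxia. Its release raises the demand for iron, which is carried in plasma by transferrin, taken up through the transferrin receptor, stored in ferritin and exported by ferroportin, whose amount at the cell surface is lowered by the liver hormone hepcidin. Control by oxygen and control by iron meet on these genes. The hypoxia-inducible factors HIF-1 and HIF-2 bind the core motif that is written here as ACGTG or GCGTG. The iron regulatory proteins bind RNA hairpins, the iron-responsive elements, which protect a transcript from decay when they lie in its 3' UTR and block its translation when they lie in its 5' UTR.

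Sequences that carry these elements are shown for EPO, TFRC and SLC40A1. Promoter windows of 300 bases (from 250 bases before each start site to shortly after it, from the RefSeq table, matched exactly to GRCh37) were held for 7 of the 10 members; CP, HMOX1 and FTH1 have no entry in it. The EPO hypoxia enhancer is known to lie beyond the 3' end of the gene, and the TFRC promoter is known to hold a HIF site, so these windows are printed 5' to 3' with the core motif in capitals. The EPO window covers the 300 bases after the gene end, chr7:100321324-100321623 on the plus strand, and the TFRC window is chr3:195808912-195809211 on the minus strand, both in GRCh37.
EPO, after the gene end: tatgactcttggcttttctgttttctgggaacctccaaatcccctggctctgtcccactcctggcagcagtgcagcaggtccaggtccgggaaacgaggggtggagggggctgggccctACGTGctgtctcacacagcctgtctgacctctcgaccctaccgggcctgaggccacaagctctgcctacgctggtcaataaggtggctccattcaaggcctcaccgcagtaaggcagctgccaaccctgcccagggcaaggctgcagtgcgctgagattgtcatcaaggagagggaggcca
TFRC, promoter: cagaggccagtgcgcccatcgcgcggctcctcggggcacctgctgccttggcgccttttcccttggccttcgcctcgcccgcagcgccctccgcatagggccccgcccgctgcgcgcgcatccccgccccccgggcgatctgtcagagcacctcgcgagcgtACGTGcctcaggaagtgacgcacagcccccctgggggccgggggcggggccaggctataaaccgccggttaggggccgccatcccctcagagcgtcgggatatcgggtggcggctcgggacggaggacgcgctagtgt
The EPO window held ACGTG at its position 120 and no GCGTG on either strand. The TFRC window held ACGTG at position -88 relative to the start site. Among the other promoter windows, EPO held GCGTG at position 15 on the opposite strand, EPOR held ACGTG at position -184, 1 of the 2 TF windows (chr3:133380592-133380891) held ACGTG at position 29, and 3 of the 4 SLC11A2 windows held 4, 1 and 1 copies of GCGTG. That TF window lies far upstream of the TF start annotated here, and the window just inside that start (chr3:133464987-133465286) held neither motif. Neither motif was found in the HAMP and SLC40A1 windows. Such matches are common: 48.4% of 34796 promoter windows of the same length held at least 1 of the motifs on either strand (ACGTG in 21.4%, GCGTG in 36.4%), as did 29.6% of the 20151 windows of this length after the ends of protein-coding genes.

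The iron-responsive elements were searched in annotated transcripts as a bulged C, 5 further bases and the loop letters CAGTG, with 5 bases of the upper stem paired across the loop, a pattern found in 1.31% of 19528 canonical protein-coding transcripts. It was found in 10 of the 11 protein-coding TFRC transcripts, at 4 places in the 3' UTR, and in 1 of the 5 SLC40A1 transcripts, in the 5' UTR. These 5 hairpins are printed with the CAGTG of the loop in capitals, because they show how alike the TFRC copies are. In the order given they lie on the minus strand of GRCh37 at chr3:195777334-195777362, chr3:195777381-195777409, chr3:195777446-195777474, chr3:195777850-195777878 and chr2:190445387-190445415.
TFRC, 3' UTR: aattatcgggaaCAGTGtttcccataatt
TFRC, 3' UTR: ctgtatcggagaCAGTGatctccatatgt
TFRC, 3' UTR: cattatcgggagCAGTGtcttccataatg
TFRC, 3' UTR: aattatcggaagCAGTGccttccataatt
SLC40A1, 5' UTR: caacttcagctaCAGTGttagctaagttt
FTH1 held 1 such element in the 5' UTR of 7 of its 8 transcripts, and TF held 1 in the 3' UTR of 1 of its 3 transcripts. No match was found in transcripts of the other 6 members, SLC11A2 included, with this strict pattern.

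Counts per sample summed to 75441764 to 97984260 in HKC-8 cells, 42045335 to 51794355 in RCC4 cells and 40915980 to 48355303 in HepG2 cells. Levels are given as CPM, the counts relative to the library size, scaled by the trimmed mean of M-values (TMM) over all 18 samples, and a level depends on transcript length, so it is compared between samples and not between genes. The lines were checked against marker lists. All 7 hepatocyte markers were above 1 CPM in HepG2 cells, where they summed to 33280 to 41840 CPM, against at most 0.539 CPM in HKC-8 and 11.1 CPM in RCC4 cells. Of 7 renal tubule markers, 4 were above 1 CPM in every RCC4 sample and 2 in every HKC-8 sample, where LRP2 was at 0 counts and PAX2, SLC34A1, CUBN and AQP1 were each under 0.1 CPM on average in normoxia. HepG2 cells also had 2 of the 7 above 1 CPM in every sample, PAX8 and CDH16, at 9.43 and 3.09 CPM on average in normoxia. The same 7 genes summed to 134 to 182 CPM in HKC-8, 299 to 405 CPM in RCC4 and 11.9 to 17.9 CPM in HepG2 cells. The sums moved with hypoxia in RCC4 cells, where the renal markers went from 397 to 405 CPM in normoxia to 299 to 337 CPM, and in HepG2 cells, where the hepatocyte markers went from 33280 to 34650 CPM in normoxia to 38600 to 41840 CPM. Their part in the responses was not tested. Erythroid markers summed to at most 0.44 CPM and macrophage markers to at most 2.76 CPM in any sample. In such bulk samples fewer cells that express a gene and less RNA per cell cannot be told apart.

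EPO (chr7:100318091-100321323, plus strand), the hormone, was counted at a substantial level in HepG2 cells alone, and there it rose in hypoxia. In HepG2 cells the level was 4.24, 5.55 and 4.61 CPM in normoxia and 23.0, 22.1 and 21.3 CPM in hypoxia, from 187 to 248 counts and from 824 to 1017 counts per sample. The groups did not overlap, and the lowest hypoxic sample was well above the highest normoxic one. The change was 4.60-fold, a log2 fold change of 2.20 ± 0.11 (SE), with an adjusted p of 4.67e-09 by the quasi-likelihood test of edgeR, which gave every adjusted p below unless another tool is named. EPO had 0 counts in all 6 RCC4 samples, and 3 counts, the number that a count of 0 still allows, correspond to at most 0.0702 CPM in a normoxic sample. In HKC-8 cells it had 0, 0 and 1 counts in normoxia and 4, 0 and 5 counts in hypoxia. The hypoxic HKC-8 samples thus overlapped with the normoxic ones, the gene did not pass the filter on low counts, and without the filter its adjusted p was 0.237. Normoxic HepG2 cells held at least 68.3-fold more EPO than RCC4 cells when the RCC4 level is set at the 3-count floor per library, which covers counting error only.

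EPOR (chr19:11487883-11495018, minus strand), the receptor through which erythropoietin acts on red cell precursors, was low in all 3 lines. In RCC4 cells it was at 1.34, 2.28 and 1.54 CPM in normoxia and at 2.78, 2.44 and 2.19 CPM in hypoxia. The second normoxic sample lay within the hypoxic range. The log2 fold change of 0.52 ± 0.21 passed the test with an adjusted p of 0.0394, but this call is weak. It was lost with DESeq2 (adjusted p = 0.0516), in 1 fit of all samples (adjusted p = 0.138) and without normoxia replicate 1 (0.193), normoxia replicate 3 (0.122), hypoxia replicate 1 (0.141) or hypoxia replicate 2 (0.0732). EPOR was 2.75 ± 0.596 CPM (SD, n = 3) in normoxic and 3.35 ± 0.812 in hypoxic HKC-8 cells, and 4.74 ± 0.602 and 4.17 ± 0.84 in HepG2 cells. Neither difference passed the test (log2 fold changes of 0.29 ± 0.23 and -0.19 ± 0.16, adjusted p = 0.421 and 0.396). Exons of EPOR overlap RGL3 on the same strand, and RGL3 itself was not called in any line.

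**Figure D1:**
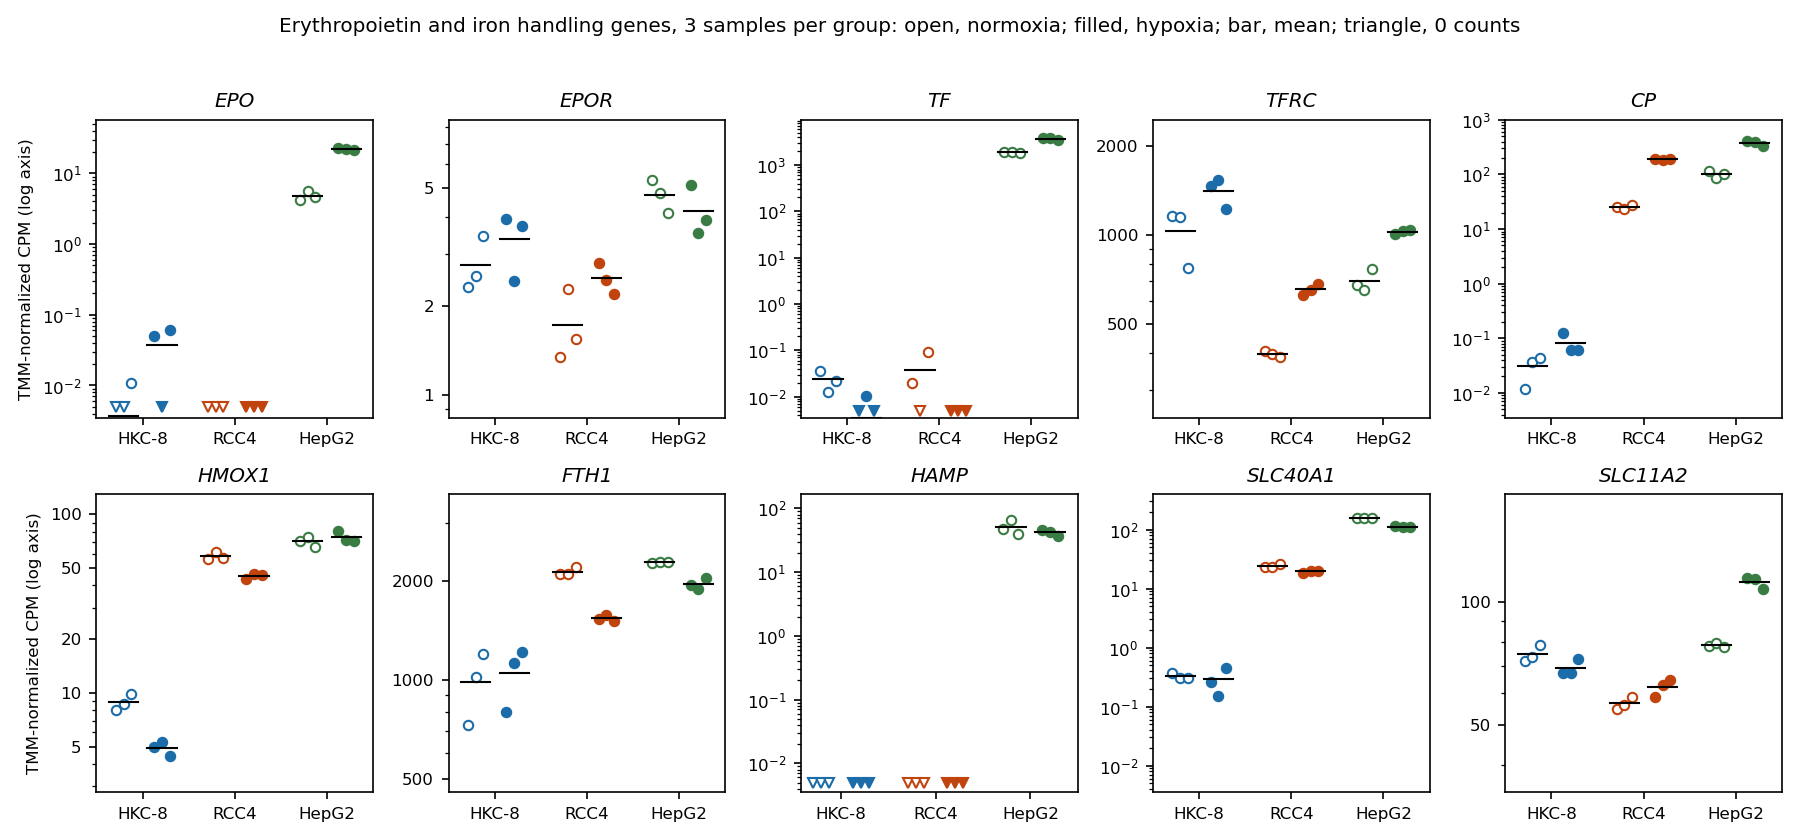
Levels of the 10 genes in TMM-normalized CPM (log axis) in each of the 18 samples, by cell line; open circles are normoxia, filled circles hypoxia, bars group means and triangles samples with 0 counts. EPO, TF and HAMP stand at 0 to 5 counts in HKC-8 and RCC4 cells and high in HepG2 cells, and CP is at 1 to 10 counts in HKC-8 cells and rises in RCC4 and HepG2 cells.

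TF (chr3:133464884-133515485, plus strand), transferrin, the iron carrier of plasma and a secreted hepatocyte protein, was likewise a HepG2 transcript. It was at 1938, 1881 and 1824 CPM in normoxic and at 3816, 3839 and 3506 CPM in hypoxic HepG2 cells. The groups were far apart, and the rise was 1.98-fold (log2 fold change 0.98 ± 0.06, adjusted p = 7.45e-08). In HKC-8 cells TF had 3, 1 and 2 counts in normoxia and 0, 1 and 0 in hypoxia, and in RCC4 cells 1, 0 and 4 counts in normoxia and 0 in every hypoxic sample. These counts lie at the floor, so no fold is given. The adjusted p without the filter was 0.308 in HKC-8 and 0.137 in RCC4 cells. TF shares exonic bases on the same strand with SRPRB, which fell in hypoxic HepG2 cells (log2 fold change -0.49, adjusted p = 6.11e-05), the opposite direction to TF.

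TFRC (chr3:195739382-195809024, minus strand), the receptor that takes up transferrin-bound iron, was higher in hypoxia in all 3 lines, and the rise passed the test in RCC4 and HepG2 cells. In RCC4 cells it was at 407, 397 and 387 CPM in normoxia and at 629, 653 and 685 CPM in hypoxia, a 1.66-fold rise (log2 fold change 0.73 ± 0.03, adjusted p = 3.15e-14). HepG2 cells had 680, 652 and 769 CPM in normoxia and 1005, 1032 and 1043 CPM in hypoxia, a 1.47-fold rise (log2 fold change 0.55 ± 0.07, adjusted p = 3.12e-05). In neither line did the groups overlap. In HKC-8 cells the level was 1159, 1152 and 774 CPM in normoxia and 1468, 1533 and 1228 CPM in hypoxia. Here, too, every hypoxic sample was above every normoxic one, but the third sample of each condition was lower than its fellows. Without a term for the replicate number the log2 fold change of 0.46 ± 0.16 missed the threshold (adjusted p = 0.0684). The numbers were taken to pair the HKC-8 samples, which no label states and which replicate 1 showed only weakly (r = 0.109). With the replicate number as a block TFRC was called (log2 fold change 0.48, adjusted p = 0.000405). It was also called with DESeq2 (adjusted p = 0.0202) and in 1 fit of all samples (adjusted p = 0.0045), whereas without single samples the log2 fold change ranged from 0.29, without normoxia replicate 3, to 0.55. The 4 iron-responsive elements and the ACGTG printed above belong to this transcript and its promoter.

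CP (chr3:148880197-148939616, minus strand), ceruloplasmin, the plasma copper oxidase that loads iron onto transferrin, had the largest rise of the 7 genes tested in RCC4 cells. It went from 25.3, 23.2 and 27.0 CPM in normoxia to 194, 186 and 193 CPM in hypoxia. The 3 hypoxic samples lay within a narrow band, far above the normoxic samples. The change was 7.63-fold (log2 fold change 2.93 ± 0.05, adjusted p = 3.99e-23). In HepG2 cells CP was at 118, 86.3 and 100 CPM in normoxia and at 404, 393 and 337 CPM in hypoxia, a 3.73-fold rise (log2 fold change 1.90 ± 0.10, adjusted p = 6.93e-09) with no overlap. HKC-8 cells, the other renal line, had 1, 3 and 4 CP counts in normoxia and 10, 6 and 5 counts in hypoxia. The HKC-8 groups did not overlap but lay near the floor, CP did not pass the filter there, and its adjusted p without the filter was 0.276. HPS3 overlaps CP exons on the opposite strand, and it was not called in RCC4 (log2 fold change 0.04, adjusted p = 0.446) or HepG2 cells (0.01, adjusted p = 0.896).

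HMOX1 (chr22:35776354-35790207, plus strand), heme oxygenase 1, which releases iron from heme, fell in hypoxia in both renal lines. In HKC-8 cells it was at 8.05, 8.65 and 9.82 CPM in normoxia and at 4.99, 5.33 and 4.43 CPM in hypoxia. All hypoxic samples were below all normoxic ones, at 0.558 of the normoxic level (log2 fold change -0.84 ± 0.14, adjusted p = 0.00457). In RCC4 cells the level went from 56.5, 61.3 and 56.8 CPM to 43.2, 46.5 and 46.0 CPM (log2 fold change -0.36 ± 0.05, adjusted p = 1.84e-06), again without overlap. The HepG2 samples overlapped, with 71.2, 75.0 and 65.9 CPM in normoxia and 80.9, 71.6 and 71.2 CPM in hypoxia (log2 fold change 0.08 ± 0.07, adjusted p = 0.441).

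FTH1 (chr11:61727190-61735106, minus strand), the heavy chain of the storage protein ferritin, fell in RCC4 cells from 2102, 2090 and 2196 CPM to 1537, 1570 and 1511 CPM. The groups were clearly apart (log2 fold change -0.46 ± 0.03, adjusted p = 1.38e-11). In HepG2 cells it went from 2258, 2279 and 2286 CPM to 1948, 1891 and 2037 CPM, also without overlap. This smaller change (log2 fold change -0.22 ± 0.06, adjusted p = 0.0117) was no longer called without hypoxia replicate 1 (adjusted p = 0.0607), without hypoxia replicate 2 (0.0689) or in 1 fit of all samples (0.262). In HKC-8 cells FTH1 spread widely within each condition, from 730 to 1202 CPM in normoxia and from 800 to 1220 CPM in hypoxia, with a log2 fold change of 0.10 ± 0.20 (adjusted p = 0.77). FTH1 has many processed pseudogenes in the human genome, and fragments that map to several places were removed, so its counts are uncertain.

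SLC40A1 (chr2:190425316-190448484, minus strand), ferroportin, the iron exporter, fell in RCC4 and HepG2 cells. In HepG2 cells it went from 159, 158 and 158 CPM to 114, 113 and 109 CPM, so the normoxic samples were almost equal and all hypoxic ones lower (log2 fold change -0.50 ± 0.05, adjusted p = 1.11e-05). In RCC4 cells it went from 23.6, 22.8 and 25.6 CPM to 18.1, 20.2 and 20.2 CPM (log2 fold change -0.29 ± 0.07, adjusted p = 0.000852), with no overlap. HKC-8 cells held only 15 to 37 counts per sample, at 0.329 ± 0.0368 CPM in normoxia and 0.288 ± 0.149 in hypoxia (SD, n = 3). With so few counts of this gene no difference was detectable in HKC-8 cells (log2 fold change -0.20 ± 0.43, adjusted p = 0.777).

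SLC11A2 (chr12:51373184-51422349, minus strand), the divalent metal transporter DMT1, which brings iron across the apical or endosomal membrane, rose in HepG2 cells. There it was at 78.3, 79.3 and 77.5 CPM in normoxia and at 115, 114 and 108 CPM in hypoxia (log2 fold change 0.52 ± 0.06, adjusted p = 1.24e-05). The normoxic and hypoxic HepG2 samples were well separated. In RCC4 cells it went from 54.8, 56.1 and 58.7 CPM to 58.7, 62.7 and 64.5 CPM, so the highest normoxic and the lowest hypoxic sample were level. That change was small (log2 fold change 0.14 ± 0.05, adjusted p = 0.018) and its call was lost in 1 fit of all samples (adjusted p = 0.118) and without normoxia replicate 1 (0.101), normoxia replicate 2 (0.0617), hypoxia replicate 2 (0.0543) or hypoxia replicate 3 (0.0987). In HKC-8 cells it was at 72.0, 73.4 and 78.6 CPM in normoxia and at 67.0, 67.2 and 72.5 CPM in hypoxia (log2 fold change -0.11 ± 0.08, adjusted p = 0.324).

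HAMP (chr19:35771619-35776046, plus strand), hepcidin, the liver hormone that removes ferroportin from the cell surface, had 0 counts in all 6 HKC-8 and all 6 RCC4 samples. In HepG2 cells it was at 47.7, 66.6 and 39.4 CPM in normoxia and at 46.4, 41.9 and 37.4 CPM in hypoxia. The groups overlapped, and the second normoxic sample stood above all others. The log2 fold change of -0.29 ± 0.15 did not pass the test (adjusted p = 0.142), although without normoxia replicate 3 it was -0.46 with an adjusted p of 0.00419. The normoxic HepG2 level was at least 1390-fold above that of HKC-8 cells and at least 730-fold above that of RCC4 cells, each set at the 3-count floor per library.

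**Figure D2:**
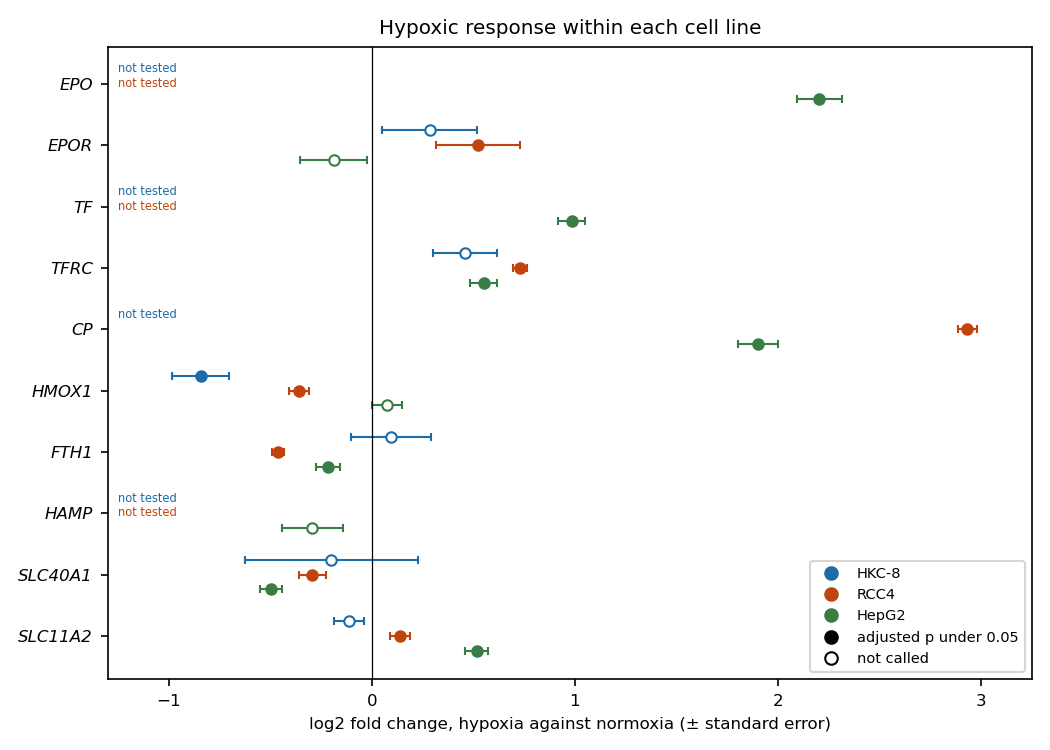
Log2 fold change of each gene in hypoxia against normoxia (horizontal axis, bars are 1 standard error) in HKC-8, RCC4 and HepG2 cells; filled circles have an adjusted p under 0.05 and genes that did not pass the filter are marked as not tested. CP at 2.93 in RCC4 cells and EPO at 2.20 in HepG2 cells lie farthest to the right, and HMOX1 at -0.84 in HKC-8 cells farthest to the left.

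By line, the share of the 10 genes that changed was read against all genes. In HKC-8 cells 6 of them passed the filter on low counts, 0 rose and 1, HMOX1, fell, where 11.2% of the 13536 genes tested rose and 9.12% fell. At an unadjusted p under 0.05 edgeR had 1 higher, TFRC, and DESeq2 called it. In RCC4 cells 7 passed the filter, 4 rose (EPOR, TFRC, CP and SLC11A2) and 3 fell (HMOX1, FTH1 and SLC40A1), where 25.9% of 12811 genes rose and 24.2% fell. In HepG2 cells all 10 passed the filter, 5 rose (EPO, TF, TFRC, CP and SLC11A2) and 2 fell (FTH1 and SLC40A1), where 19.9% of 13623 genes rose and 19.2% fell. The genes that did not pass the filter were EPO, TF, CP and HAMP in HKC-8 cells and EPO, TF and HAMP in RCC4 cells. HKC-8 cells had a median log2 fold change over the members tested of -0.01, RCC4 cells of 0.14 and HepG2 cells of 0.30, beside 0.00 over all genes in each line. The replicate number as a block changed only the HKC-8 count, to 1 up and 1 down, where 21% of all genes tested rose and 21.6% fell with that block.

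The labels give HKC-8 and HepG2 cells the same exposure, although the titles of hypoxic HKC-8 samples read 0.1 in place of 0.5. Their responses were tested against each other for the 6 members that passed the filter on low counts in both lines. That limit was set after the counts were seen. If the titles are right, cell line and oxygen level cannot be told apart in this comparison. The response differed for HMOX1, where HepG2 minus HKC-8 was 0.92 ± 0.14 on the log2 scale (adjusted p = 0.000616), and for SLC11A2, where it was 0.63 ± 0.09 (adjusted p = 0.000487). HMOX1 fell in HKC-8 cells and SLC11A2 rose in HepG2 cells, and neither changed detectably in the other line. Of all genes tested, 9.3% had a response that differed. The differences for EPOR (-0.47 ± 0.31, adjusted p = 0.391), TFRC (0.10 ± 0.18, 0.817), FTH1 (-0.31 ± 0.22, 0.438) and SLC40A1 (-0.28 ± 0.29, 0.622) did not pass the test. With the replicate number as a block within each line FTH1 was called as well (-0.31, adjusted p = 0.0105). TF, at 0 to 3 counts in HKC-8 cells, was left out of this comparison after its counts were seen, although its fitted difference had an adjusted p of 0.0454. The RCC4 exposure has another labelled dose and time and was not tested against the others.

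**Figure D3:**
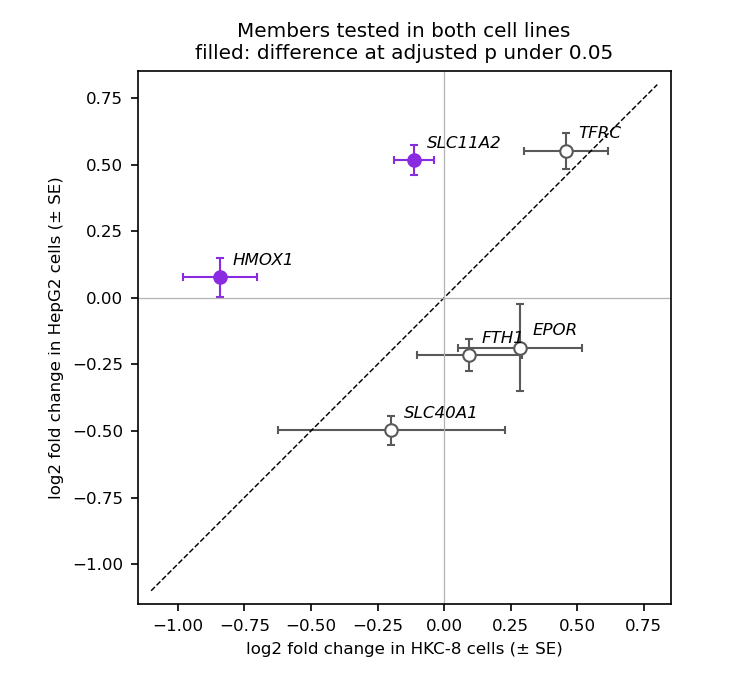
Log2 fold change in hypoxia against normoxia in HKC-8 cells (horizontal axis) and in HepG2 cells (vertical axis) for the 6 genes tested in both lines, with bars of 1 standard error and the dashed line of equal response; filled points have a difference with an adjusted p under 0.05. HMOX1 and SLC11A2 lie above the line of equal response, by 0.92 and 0.63.

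The normoxic levels ordered the lines differently for different genes, and most genes of the series differed between lines. Between normoxic RCC4 and HKC-8 cells 7 of the 10 genes differed, where 80.8% of 14806 genes did. Between HepG2 and HKC-8 cells 9 did, where 83% did, and between HepG2 and RCC4 cells 9 did, where 83.3% did. EPO, TF, HAMP and CP had at most 4 counts in every normoxic HKC-8 sample and passed the filter only through lines where they are high. Their calls against a line near the floor follow from that and are no separate support. With at least 10 counts required in every sample they were no longer tested. TFRC was highest in HKC-8 cells (1029 ± 220.1 CPM, SD, n = 3), then HepG2 (700.6 ± 61.0), then RCC4 (397 ± 9.93), and each step passed the test (HepG2 against HKC-8 -0.53 ± 0.13 and HepG2 against RCC4 0.83 ± 0.13 on the log2 scale). SLC40A1 was highest in HepG2, then RCC4, then HKC-8 cells, with 158 ± 0.609 CPM in HepG2, 24.0 ± 1.47 in RCC4 and 0.329 ± 0.0368 in HKC-8 cells, and each step passed the test (log2 differences of 2.73 ± 0.07 and 6.19 ± 0.10). Its normoxic RCC4 level was 73.1-fold that of HKC-8 cells, the other renal line. CP followed the same order, at 101 ± 15.7, 25.1 ± 1.89 and 0.031 ± 0.0168 CPM, the last from 1 to 4 counts.

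HMOX1 was at 70.7 ± 4.56 CPM in normoxic HepG2, 58.2 ± 2.68 in RCC4 and 8.84 ± 0.903 in HKC-8 cells. The HepG2 and RCC4 samples did not overlap, but their difference (log2 0.29 ± 0.08, adjusted p = 0.00607) was lost without HepG2 normoxia replicate 2 (adjusted p = 0.0825). FTH1 was at 2274 ± 14.7 CPM in HepG2 and 2129 ± 57.8 in RCC4 cells, which did not differ by the test (log2 difference 0.10 ± 0.13, adjusted p = 0.478), and at 984.9 ± 238.1 in HKC-8 cells, which was lower than both. SLC11A2 did not differ by the test between HepG2 (78.4 ± 0.93 CPM) and HKC-8 cells (74.7 ± 3.49 CPM; adjusted p = 0.198) and was lower in RCC4 cells (56.5 ± 2.00 CPM). EPOR was highest in HepG2, then HKC-8, then RCC4 cells, but the step from HKC-8 to RCC4 (log2 difference -0.66 ± 0.23, adjusted p = 0.0166) was lost without HKC-8 normoxia replicate 3 (adjusted p = 0.053), RCC4 normoxia replicate 1 (0.0833) or RCC4 normoxia replicate 3 (0.0604). Cell line and depth cannot be told apart in these contrasts.

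Of 101 other genes of the iron and EPO pathways, in 6 lists, 14 rose and 8 fell of 89 tested in HKC-8 cells, 17 rose and 24 fell of 83 in RCC4 cells, and 20 rose and 30 fell of 90 in HepG2 cells. Over all genes tested 11.2% rose and 9.12% fell in HKC-8, 25.9% and 24.2% in RCC4 and 19.9% and 19.2% in HepG2 cells, and the counts of each list below are read against these shares. The total of 22 called in HKC-8 cells went to 6 without normoxia replicate 1, 7 without normoxia replicate 2, 4 without hypoxia replicate 1 and 14 without hypoxia replicate 3. The replicate number as a block moved the HKC-8 count to 22 up and 21 down, where 21% of all genes rose and 21.6% fell with the block. The total of 41 in RCC4 cells went to 20 in 1 fit of all 18 samples. Genes of these lists that are named without an error of their own were singled out after their values were seen. In HKC-8 cells these were BMPR2, ID1, SMAD7, CPOX, ABCB6, UROD, ISCU and GAB1, and each lost its call without normoxia replicate 1 (adjusted p = 0.051 to 0.174) and kept it with the block. All of them but ISCU also lost it without normoxia replicate 2 (0.051 to 0.137), and all but SMAD7 without hypoxia replicate 1 (0.0531 to 0.152). Without hypoxia replicate 2 the HKC-8 call was lost for SMAD7 (0.0661) and ABCB6 (0.086), without normoxia replicate 3 for UROD (0.0572), and without hypoxia replicate 3 for BMPR2, ID1, SMAD7, UROD and GAB1 (0.0591 to 0.133). ID1 lost it as well with at least 10 counts required in every sample (0.0515).

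Among 21 other genes of iron uptake and cellular transport, 6 rose and 0 fell of 16 tested in HKC-8 cells, with a list median of 0.34 on the log2 scale. At an unadjusted p under 0.05 edgeR had 2 of them lower, and DESeq2 called 1 lower. With the replicate block 8 rose and 3 fell, where 21% of all genes rose and 21.6% fell with the block. LRP1, the endocytic receptor of heme-hemopexin, rose in all 3 lines, with log2 fold changes of 1.11 ± 0.08 in HKC-8 (adjusted p = 6.68e-05), 0.73 ± 0.06 in RCC4 (5.99e-10) and 0.55 ± 0.06 in HepG2 cells (8.44e-06). TFR2, the transferrin receptor of liver and red cell precursors, rose in HKC-8 cells from 3.04 ± 0.322 to 4.81 ± 0.116 CPM (log2 fold change 0.66 ± 0.15, adjusted p = 0.0152), had 0 counts in every RCC4 sample and was at 22.0 ± 3.20 and 25.3 ± 2.89 CPM in HepG2 cells (0.20 ± 0.11, adjusted p = 0.168). MFI2, which encodes melanotransferrin, rose in HepG2 cells from 5.17 ± 0.549 to 12.6 ± 0.518 CPM (log2 fold change 1.29 ± 0.11, adjusted p = 8.96e-07) and was at 0.39 ± 0.11 in HKC-8 cells (adjusted p = 0.0372), a call lost without any single sample but hypoxia replicate 3 (0.0586 to 0.123). HEPHL1, a ferroxidase, rose in HKC-8 cells from 10 to 12 counts to 21 to 33 counts (log2 fold change 1.42 ± 0.41, adjusted p = 0.0393). In HKC-8 cells the TFR2 call was lost without normoxia replicate 1 (adjusted p = 0.0786) or hypoxia replicate 1 (0.0642). The HEPHL1 call rests on few counts and was lost with DESeq2 (adjusted p = 0.0578), without the filter (0.0501) and without any single sample but hypoxia replicate 2 (0.0626 to 0.145). HEPH, the ferroxidase partner of ferroportin in the intestine, had at most 2 counts in any sample. In RCC4 cells 2 rose (LRP1 and STEAP3) and 2 fell (MCOLN1 and PCBP1) of 12 tested, where the PCBP1 call was lost in 1 fit of all samples (adjusted p = 0.211) and without hypoxia replicate 1 (0.0706) or hypoxia replicate 3 (0.0547), and in HepG2 cells 5 rose and 6 fell of 15. The STEAP family genes STEAP1, STEAP2 and STEAP3 were among those that fell in HepG2 cells (log2 fold changes of -0.69, -0.49 and -0.51), whereas STEAP3 rose in RCC4 cells (0.42). STEAP1 and STEAP2 were not called in RCC4 cells (0.06 ± 0.32 and -0.40 ± 0.17, adjusted p = 0.889 and 0.0505). The STEAP2 call in HepG2 cells was lost in 1 fit of all samples (adjusted p = 0.0625).

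Of 6 genes of iron storage and of the iron regulatory proteins, 5 were tested in each line. FTL, the light chain of ferritin, fell with FTH1 in RCC4 (log2 fold change -0.42 ± 0.03, adjusted p = 5.99e-11) and HepG2 cells (-0.52 ± 0.07, adjusted p = 6.27e-05) and was at -0.16 ± 0.12 in HKC-8 cells (adjusted p = 0.407). In HepG2 cells FTL went from 8886 ± 239 to 6185 ± 431.5 CPM (SD, n = 3). ACO1, which encodes IRP1, fell in RCC4 cells (-0.15 ± 0.04, adjusted p = 0.00121). IREB2, which encodes IRP2, fell in HKC-8 cells (-0.27 ± 0.07, adjusted p = 0.031) and rose slightly in RCC4 cells (0.12 ± 0.04, adjusted p = 0.0215). The HKC-8 call of IREB2 was lost without normoxia replicate 1 (adjusted p = 0.129), normoxia replicate 2 (0.0806), hypoxia replicate 1 (0.109) or hypoxia replicate 2 (0.0605), and its RCC4 call was lost in 1 fit of all samples (0.269) and without normoxia replicate 1 (0.0557), normoxia replicate 2 (0.16) or hypoxia replicate 3 (0.0679). The ACO1 call in RCC4 cells was lost in 1 fit of all samples (adjusted p = 0.12). In HepG2 cells ACO1 and IREB2 were at -0.06 ± 0.07 and 0.16 ± 0.07 (adjusted p = 0.559 and 0.111), NCOA4, the receptor for ferritin breakdown, rose (0.32) and FBXL5, which targets IRP2 for degradation, fell (-0.30).

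Of 21 regulators of hepcidin, 19 were tested in each line, and 4 rose and 1 fell in HKC-8, 4 rose and 4 fell in RCC4 and 7 rose and 3 fell in HepG2 cells, where 19.9% of all genes rose and 19.2% fell. With the replicate block the HKC-8 count was 8 up and 2 down, beside 21% up and 21.6% down over all genes with the block. The RCC4 counts lie near the shares over all genes, 25.9% up and 24.2% down. BMP6, the signal that raises hepcidin when iron is high, rose in HKC-8 cells from 1 to 15 counts to 45 to 55 counts (log2 fold change 2.68 ± 0.61, adjusted p = 0.0164). That call was lost without hypoxia replicate 1 (adjusted p = 0.0602) or hypoxia replicate 3 (0.0518). BMP6 was at 0.54 ± 0.24 (adjusted p = 0.0702) in RCC4 and at 0.26 ± 0.30 (adjusted p = 0.526) in HepG2 cells. BMPR2, a receptor of BMP6, rose in all 3 lines, by 0.37, 0.58 and 0.50 on the log2 scale in HKC-8, RCC4 and HepG2 cells. HFE, a membrane partner of the transferrin receptors, rose in HepG2 cells (0.53), as did the BMP target genes ID1 (0.46), SMAD6 (0.65) and SMAD7 (0.33). SMAD7 also rose in HKC-8 cells (0.43, adjusted p = 0.0424), whereas ID1 fell in HKC-8 (-0.60) and RCC4 cells (-0.14). SMAD6 was not called in HKC-8 cells (0.02), nor were SMAD6 and SMAD7 in RCC4 cells (0.14 and 0.09). The 3 that fell in HepG2 cells were IL6R (-0.73 ± 0.09, adjusted p = 3.72e-05), GDF15 (-0.34 ± 0.10, 0.0132) and STAT3 (-0.20 ± 0.07, 0.0351). IL6R fell in RCC4 cells as well (-0.40 ± 0.07, adjusted p = 0.000125), as did GDF15 (-0.51 ± 0.04, 1.14e-09). Neither was called in HKC-8 cells, where IL6R was at -0.21 ± 0.27 (adjusted p = 0.622) and GDF15 at 0.93 ± 0.38 (0.113). The SMAD7 call in HepG2 cells was lost without normoxia replicate 1 (adjusted p = 0.0623) or hypoxia replicate 3 (0.067), and the ID1 call in RCC4 cells in 1 fit of all samples (0.439).

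**Figure D4:**
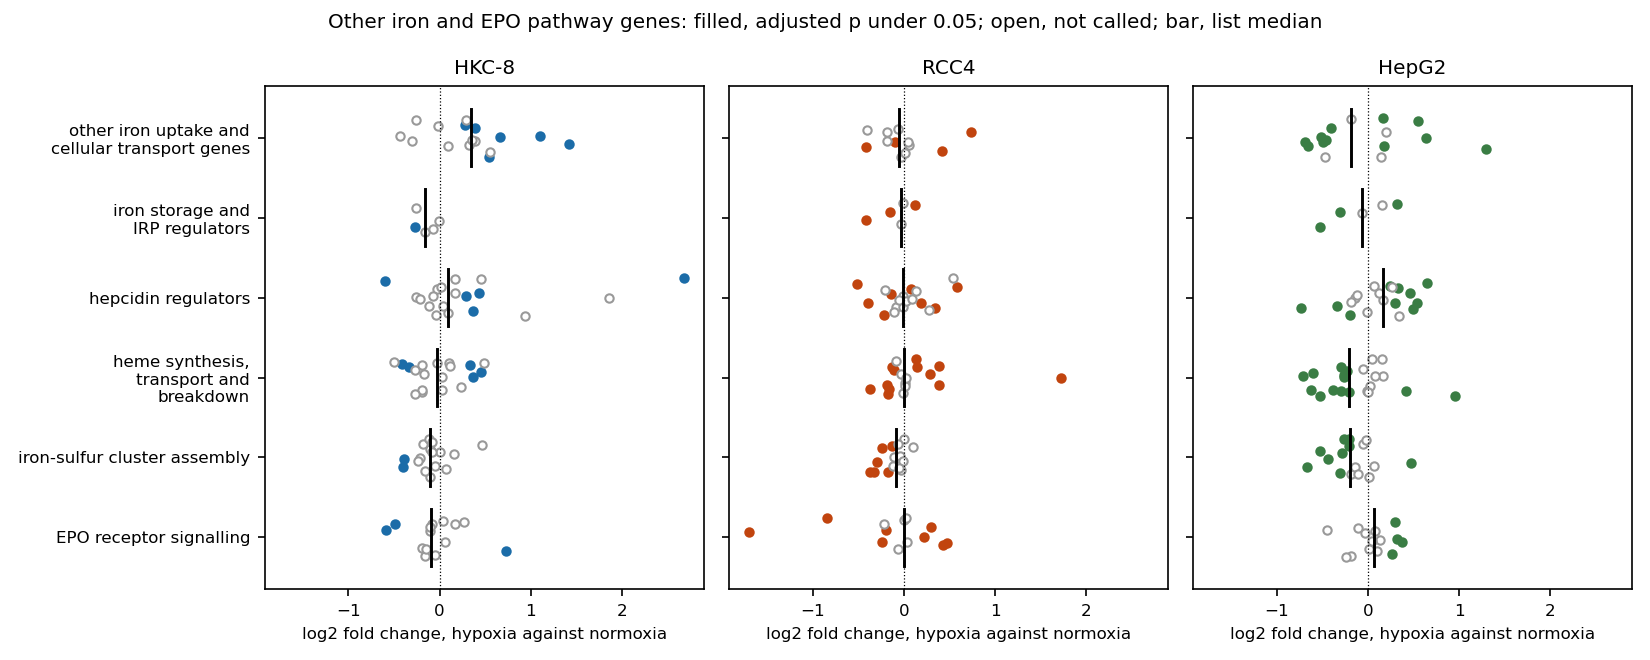
Log2 fold change in hypoxia against normoxia (horizontal axis) of each tested gene of the 6 other lists (rows) in HKC-8, RCC4 and HepG2 cells; filled points have an adjusted p under 0.05, open points were not called, and bars are list medians. The heme and iron-sulfur lists have more filled points left of 0 than right of it in HepG2 cells, 11 against 2 and 8 against 1, where 19.2% of all genes fell and 19.9% rose.

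Of 22 genes of heme synthesis, transport and breakdown, 3 rose and 2 fell of 19 tested in HKC-8, 6 rose and 6 fell of 18 in RCC4, and 2 rose and 11 fell of 21 in HepG2 cells, where the list median was -0.21, beside 19.9% up and 19.2% down over all genes tested in HepG2 cells. With the replicate block 4 rose and 8 fell in HKC-8 cells, beside 21% up and 21.6% down over all genes with the block. The 2 that rose in HepG2 cells were CPOX (0.96), which makes protoporphyrinogen, and the porphyrin transporter ABCB6 (0.42), and both also rose in HKC-8 (0.37 and 0.33) and RCC4 cells (0.39 for each). UROD, an earlier step of heme synthesis, fell in all 3 lines, with log2 fold changes of -0.41, -0.18 and -0.61, and its RCC4 call was lost in 1 fit of all samples (adjusted p = 0.124). FLVCR2, a relative of the heme exporter FLVCR1, rose in RCC4 cells from 1 to 11 counts to 13 to 30 counts (log2 fold change 1.72 ± 0.57, adjusted p = 0.0155). That call was lost without normoxia replicate 1 (adjusted p = 0.057), normoxia replicate 3 (0.0714) or hypoxia replicate 2 (0.113). ALAS2, the erythroid enzyme of heme synthesis, had at most 17 counts in any sample and was tested in no line.

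Of 16 genes of iron-sulfur cluster assembly, all tested in each line, 0 rose and 2 fell in HKC-8, 0 rose and 6 fell in RCC4, and 1 rose and 8 fell in HepG2 cells, with list medians of -0.11, -0.08 and -0.20. Over all genes tested 9.12%, 24.2% and 19.2% fell in the same order, so the HKC-8 count is near that share. With the replicate block 1 rose and 3 fell in HKC-8 cells, where 21% of all genes rose and 21.6% fell with the block. At an unadjusted p under 0.05 edgeR had 1 higher in HKC-8 and 0 in RCC4 cells, and DESeq2 called 1 and 0. ISCU, the scaffold on which clusters are built, fell in all 3 lines, with log2 fold changes of -0.39, -0.37 and -0.43. Of 15 genes of EPO receptor signalling, 1 rose and 2 fell of 14 tested in HKC-8 cells, beside 11.2% and 9.12% of all genes. In RCC4 cells 4 rose and 4 fell of 13, beside 25.9% and 24.2% of all genes. In HepG2 cells 4 rose and 0 fell of 14, beside 19.9% and 19.2% of all genes. There edgeR had 1 lower at an unadjusted p under 0.05, and DESeq2 called 0 lower. The adaptor GAB1 rose in all 3 lines (0.73, 0.30 and 0.32), but in 1 fit of all samples its RCC4 and HepG2 calls were lost (adjusted p = 0.153 and 0.0798). The 2 that fell in HKC-8 cells were STAT5A (-0.59 ± 0.16, adjusted p = 0.0304) and SHC1 (-0.49 ± 0.10, 0.00932). CISH was among the 4 that fell in RCC4 cells (-0.84 ± 0.20, adjusted p = 0.00121). SOCS1, a feedback inhibitor of JAK kinases, fell in RCC4 cells from 13 to 40 counts to 7 to 12 counts (log2 fold change -1.70 ± 0.49, adjusted p = 0.0058), a call lost without normoxia replicate 3 (adjusted p = 0.0514).

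Across the 18 samples the 3 genes whose log2 level ran most like that of EPO, out of 15307, were IGFBP2, SLA2 and SLC2A14 (Pearson r of 0.996, 0.995 and 0.994). For CP they were ITGB5, FKBP10 and ABCA1 (0.993, 0.993 and 0.992), and for TFRC they were MTR, MAP2K1 and TET2 (0.971, 0.964 and 0.949). The samples form 3 clusters by cell line, and each r is a description over points that share a line, given without a test. EPO had 0 to 5 counts in every HKC-8 and RCC4 sample, so its r values rest on the HepG2 samples and their distance from that floor.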

How the data were processed

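PolyA+ RNA was sequenced from 18 samples of HKC-8, RCC4 (+VHL) and HepG2 cells, grouped by the labels into normoxia and hypoxia with 3 samples each. According to the labels and methods, the authors trimmed adapters with Trim Galore 0.3.3, aligned the reads to GRCh37 with TopHat 2.0.8b and Bowtie 1.0.0, removed non-unique fragments with SAMtools 0.1.19 and counted reads per UCSC gene with HTSeq 0.5.4p3 (intersection-strict). These raw counts were deposited without normalization. Removing non-unique fragments lowers genes with near-identical copies, and strict counting drops reads shared by overlapping genes. Whether counting used strand is not given in the sources used here, so overlaps on the opposite strand, such as CP with HPS3 and FTH1 with BEST1, cannot be separated. BEST1, looked at after its overlap was found, rose in HKC-8 cells (log2 fold change 3.69, adjusted p = 0.00366) and was too low to be tested in the other lines.

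Each line was fitted on its own with edgeR 4.0.16 in R 4.3.3 (filterByExpr, TMM, quasi-likelihood test, Benjamini-Hochberg over all genes tested, threshold 0.05). Standard errors were derived from the fold change and the F statistic. The difference between lines was an interaction in the 12 HKC-8 and HepG2 samples, and normoxic levels were compared in the 9 normoxic samples. Alternatives were DESeq2 1.42.0, its size factors within edgeR, a block for the replicate number, a joint fit of the 18 samples, the leaving out of each sample in turn, and either no filter or a stricter one that asked for 10 counts in all samples. They were run for list genes singled out later and named without an error, in the lines where these were called. They were not run gene by gene for IL6R, GDF15, STAT3, STAT5A, SHC1 and CISH, which were also named after their values were seen. For the 10 genes and the other genes named by rule they were run in every line where these were tested. That rule named FTL, TFR2, IREB2, ACO1, HEPH, ERFE, BMP6 and ALAS2 in each line, and, per line, up to 8 called list genes with a log2 fold change of at least 1 in size. ERFE was matched to no row and is not analysed here. HJV was matched as HFE2 and melanotransferrin as MFI2. The members, lists and tests were chosen with earlier results of these data known. After the counts were seen, the interaction was limited to the 6 members that passed the filter in both lines, and single-gene normoxic values with a mean of at most 3 counts in both lines (EPO, TF and HAMP, RCC4 against HKC-8) were left out of the alternatives.

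Deviations from the group means of same-numbered samples correlated in HKC-8 cells for replicates 2 and 3 (r = 0.453 and 0.447) and weakly for replicate 1 (0.109). There the numbers were taken to pair the samples, which no label states. The r of HKC-8 replicate 1 lay below that of HepG2 replicates 1 and 3 (0.165 and 0.184), which were not taken as paired. No pair of replicates matched within sampling noise (chi-square of 4.62 to 95.8 per gene). A count of 0 allows up to 3 counts, and such floors cover counting error only. The test was checked on simulated counts of independent samples, so that check does not cover the pairing taken for HKC-8 cells. Promoter sequences are from RefSeq, matched to GRCh37, and transcripts are from GENCODE.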

Additional observations from a re-analysis of the deposited data

Results flagged for a closer look

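HMOX1 was flagged because its response to hypoxia differed between the HKC-8 and HepG2 cell lines, by 0.92 ± 0.14 on the log2 scale (HepG2 minus HKC-8, adjusted p = 0.000616 in the edgeR interaction fit). It kept its call in every alternative run, and leaving out single samples moved the difference from 0.81 to 0.98. SLC11A2 was flagged in the same way, with a difference of 0.63 ± 0.09 (adjusted p = 0.000487) and a range of 0.56 to 0.67 without single samples. Depth was 75441764 to 97984260 counts in the HKC-8 samples and 40915980 to 48355303 in the HepG2 samples, and for hypoxic HKC-8 cells titles and characteristics give different oxygen levels; the part of either in these differences was not tested.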

How the results depend on the processing

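Of the 10 genes, the count called in HKC-8 cells moved from 1 to 2 with DESeq2, in 1 fit of all 18 samples and with the replicate number as a block, each time through TFRC. The count of other pathway genes called there moved from 22 to 36 in 1 fit of all 18 samples and to 43 with the block, and it ranged from 4 to 18 when single samples were left out. In RCC4 cells that count moved from 41 to 20 in 1 fit of all 18 samples. With at least 10 counts required in every sample, the count of genes that differed between normoxic HepG2 and HKC-8 cells went from 9 to 5, and between HepG2 and RCC4 cells from 9 to 5, because EPO, TF, HAMP and CP, which are low in at least 1 of the 9 normoxic samples of this fit, were no longer tested. Values that turned in sign when single samples were left out were never called. These were FTH1 in HKC-8 cells (-0.084 to 0.26), SLC40A1 in HKC-8 cells (-0.67 to 0.12), BMP6 in HepG2 cells (-0.017 to 0.54), FLVCR2 in HepG2 cells (-0.079 to 0.055) and the difference in SLC40A1 response between HepG2 and HKC-8 cells (-0.63 to 0.19). FLVCR2 in HepG2 cells, never called, was at a log2 fold change of -0.0010 and turned to 0.0011 with median-of-ratios size factors, 0.0012 with DESeq2, 0.0030 with at least 10 counts in every sample and 0.00075 in 1 fit of all 18 samples. In HepG2 cells all of EPO, TF, TFRC, CP, SLC40A1 and SLC11A2 kept their direction and call in all alternatives run, as did TFRC, CP, HMOX1, FTH1 and SLC40A1 in RCC4 cells and HMOX1 in HKC-8 cells. Of the members' values under the alternatives, 66 of 72 in HKC-8, 73 of 84 in RCC4 and 116 of 120 in HepG2 cells kept their direction and side of the threshold. The replicate numbers were not taken to pair the RCC4 (r = -0.0103, 0.0333 and 0.0147) or HepG2 samples (0.165, 0.0617 and 0.184). There the block gave 4 up and 3 down, and 5 up and 2 down, of the 10 genes. HKC-8 counts of EPO, TF and CP, RCC4 counts of EPO, TF and HAMP and HKC-8 counts of SLC40A1 are too few to show a change of modest size.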
